A study of Mus musculus with 24 samples.

Results

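A set of 9 genes that carry or restrain the signal of the IL-4 receptor was followed through all the macrophage libraries of the series: Il4ra, Il13ra1, Stat6, Stat3, Jak2, Socs1, Socs2, Socs3 and Cish. They were taken by gene symbol, with earlier results of these data known, and all 9 were found among the 17109 genes listed for both stimuli (18063 genes in the M1 files and 17786 in the M2 files). The study compared bone marrow-derived macrophages (BMDMs) of wild-type (WT) and DRD5-/- mice, which lack the dopamine receptor DRD5, with and without dopamine (DA), by RNA sequencing on a BGISEQ-500. The 24 libraries formed 8 groups of 3.

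In all 8 groups the mice had the C57BL/6 strain and an age of 10 weeks, and the cells were stimulated for 12 h. The methods state that male mice were used, that the DRD5-/- line was made by CRISPR-Cas9, and that marrow from tibias and femurs was grown in L929-conditioned medium. The labels give bone as the tissue, while their growth note says colon. For the 4 M1 groups the stimulus was 100 ng/ml LPS with 50 ng/ml IFN-γ, and for the 4 M2 groups it was IL-4 and IL-13, each at 10 ng/ml. Within a stimulus, WT cells and DRD5-/- cells each had an untreated and a DA-treated group. DA was given at 20 µM according to the caption that describes these libraries, while the methods name several concentrations. "Untreated" means without DA, and no group went without a stimulus. The libraries of a group carry numbers, but nothing says whether a number is a mouse or a culture, so the p-values measure the spread between these libraries, which may be technical.

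IL-4 binds the IL-4 receptor α chain, which then pairs with the common γ chain or with the IL-13 receptor α1 chain, the chain that also binds IL-13. Janus kinases (JAKs) on the chains phosphorylate STAT6, which enters the nucleus and switches on the genes of alternatively activated (M2) macrophages, whereas IL-6 and IL-10 act through STAT3. The SOCS proteins and CIS, which are themselves induced by STATs, bind receptors or JAKs and dampen the signal.

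STAT proteins bind the palindrome TTCNNNGAA, and STAT6 also the same arms with a 4-base spacer. Both, the cyclic AMP response element TGACGTCA and its shorter form TGACG were searched on both strands of the RefSeq promoter windows (GRCm38.p6, 250 bases before to 50 after the start of a gene), which were at hand for 8 of the 9 genes. The 4 windows shown belong to the genes on which the comparisons below turn (Stat3, Socs1 and Socs3) and to Cish, which has the most STAT matches, with TTCNNNGAA in capitals. They lie on chr11:100939491-100939790 (minus strand), chr16:10785487-10785786 (minus), chr11:117969317-117969616 (minus) and chr9:107296409-107296708 (plus).
Stat3: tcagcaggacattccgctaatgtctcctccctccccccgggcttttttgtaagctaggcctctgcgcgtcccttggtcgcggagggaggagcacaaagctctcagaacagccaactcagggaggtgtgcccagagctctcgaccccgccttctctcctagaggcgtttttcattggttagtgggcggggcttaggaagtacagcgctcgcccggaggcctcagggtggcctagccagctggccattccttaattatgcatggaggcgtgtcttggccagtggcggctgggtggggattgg
Socs1: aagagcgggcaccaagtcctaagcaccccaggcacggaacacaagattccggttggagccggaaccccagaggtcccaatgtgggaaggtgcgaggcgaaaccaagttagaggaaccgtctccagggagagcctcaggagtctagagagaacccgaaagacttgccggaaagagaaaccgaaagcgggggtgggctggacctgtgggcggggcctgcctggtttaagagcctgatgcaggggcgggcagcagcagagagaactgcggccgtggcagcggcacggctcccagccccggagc
Socs3: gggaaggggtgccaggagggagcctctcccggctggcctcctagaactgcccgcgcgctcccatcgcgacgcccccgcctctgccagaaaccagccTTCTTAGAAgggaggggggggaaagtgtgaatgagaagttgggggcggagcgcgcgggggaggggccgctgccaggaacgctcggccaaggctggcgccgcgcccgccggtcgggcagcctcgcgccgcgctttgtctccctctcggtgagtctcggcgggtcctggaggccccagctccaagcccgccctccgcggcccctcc
Cish: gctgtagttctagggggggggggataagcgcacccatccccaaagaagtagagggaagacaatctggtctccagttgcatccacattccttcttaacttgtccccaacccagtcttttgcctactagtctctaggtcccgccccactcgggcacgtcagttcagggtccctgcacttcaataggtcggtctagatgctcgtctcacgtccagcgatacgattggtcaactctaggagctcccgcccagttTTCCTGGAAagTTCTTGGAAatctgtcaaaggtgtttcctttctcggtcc
Socs3 held TTCTTAGAA, 154 bases before the start, and Cish held TTCCTGGAA at the start and TTCTTGGAA 11 bases after it. Of all 32851 windows, 8.3% held TTCNNNGAA. The form with the 4-base spacer was in 6.95% of all windows and in none of the 8 genes'. TGACGTCA was in 1.79% of windows and in none of the 8 either. TGACG, which is part of TGACGTCA, was in 20.8% and in the windows of Stat6 (33 bases before the start) and Cish (97 bases before). These starts are those of the RefSeq windows. The gene spans given below come from GENCODE and cover all of its transcripts, so the windows of Socs3 and Cish lie inside the spans of these genes. The matches describe letters, not binding.

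The values are FPKM, fragment counts scaled by transcript length and by the library's mapped fragments, as the authors deposited them, so they are per length and can be compared between genes. The files hold no read counts and the depth is unknown. The FPKM of a library summed to 476187 to 494459 in M1 and 482310 to 503799 in M2. Drd5 could not check the genotype, being not listed in M1 and at 0 in 10 of the 12 M2 libraries, with a highest value of 0.06. All 8 macrophage markers reached 1 FPKM in both stimuli, with summed levels of 7263 to 11300 FPKM. Of the markers of other cells, those of B cells summed to 0.42 FPKM at most, those of T cells to 1.32 in M1 and 6.66 in M2 (only Cd4 reached 1 FPKM, and Cd3d stayed at 0.15 or less), and those of mast cells and basophils to 3.86 (only Kit reached 1). Markers of T cells, mast cells, neutrophils, dendritic cells and stromal cells moved with some groups and are given beside the results. In bulk RNA, fewer cells of a type and less RNA per cell cannot be told apart.

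The levels of the 9 genes spanned a wide range. In M1, Socs3 and Socs1, both rapidly induced inhibitors, ranked 213th and 224th of 18063 genes by mean FPKM, and Il4ra 286th. Stat3 (rank 717), Stat6 (1054), Jak2 (1247) and Il13ra1 (2434) followed, and Cish (5902) and Socs2 (8781) were the lowest. In M2, Stat6 led the 9 genes at rank 1255 of 17786, ahead of Socs1 (2046), Stat3 (2273), Il4ra (3582) and Jak2 (4029). Socs2 (7835), Cish (8602), Socs3 (8880) and Il13ra1 (9194) lay near the middle of all genes.

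**Figure D1:**
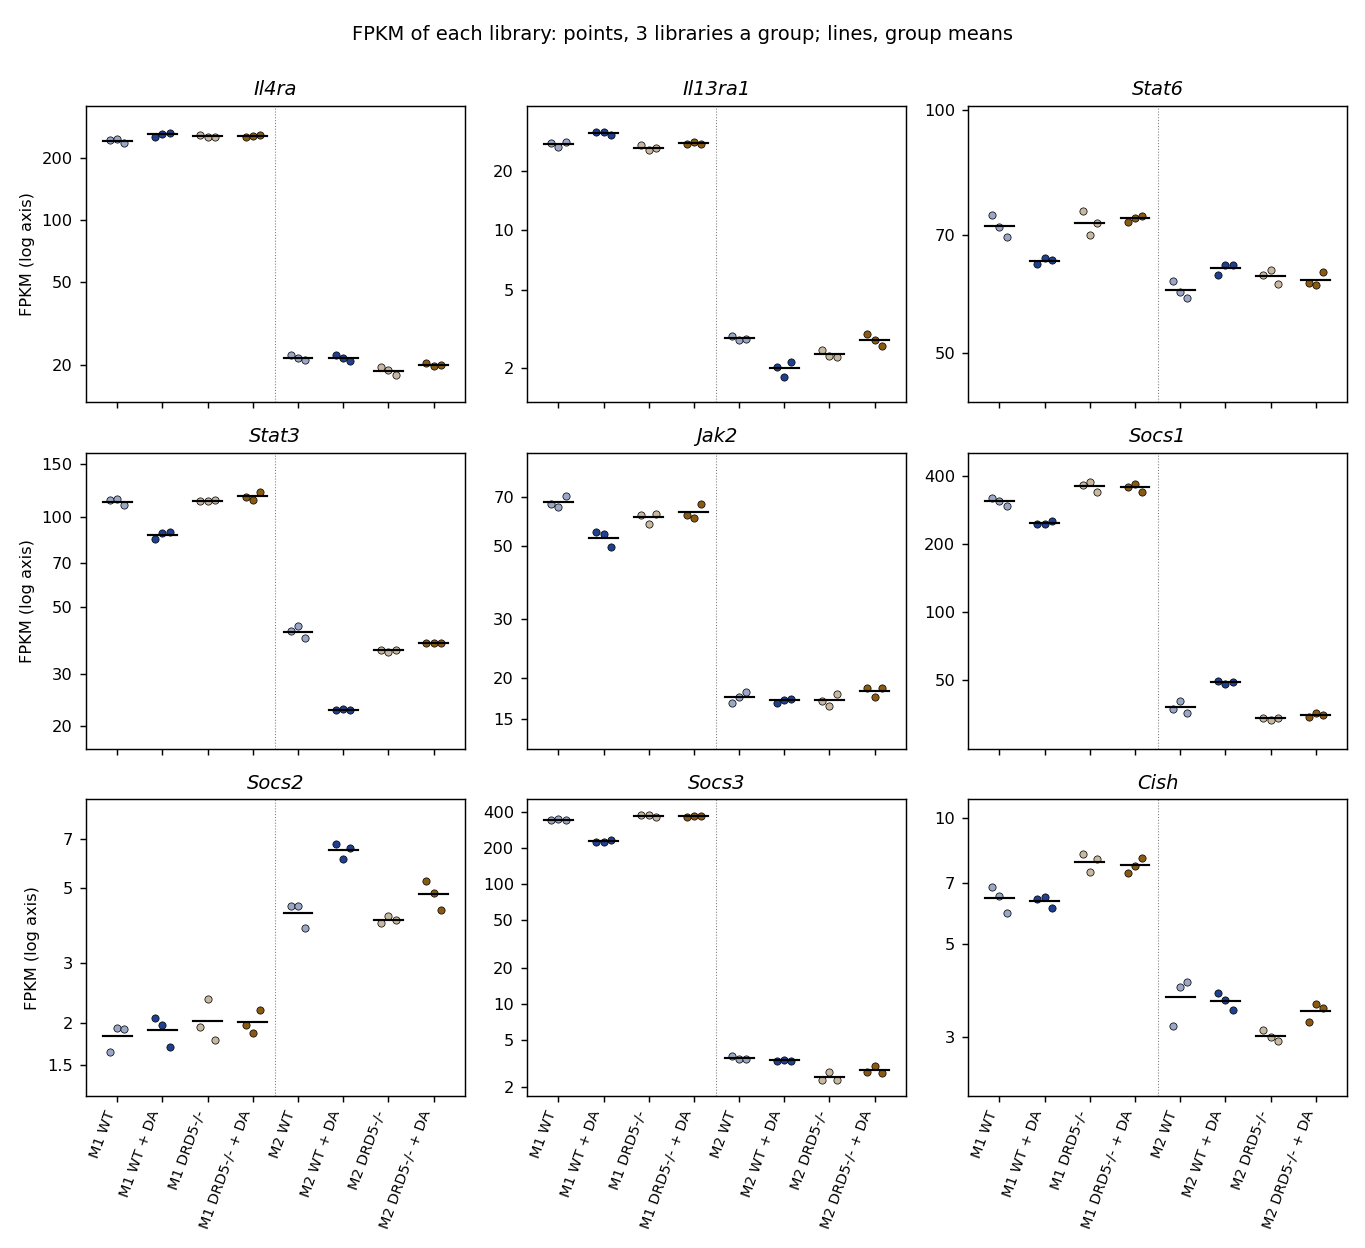
FPKM (log axis) of the 9 genes in the 8 groups, with M1 left and M2 right of the dotted line, 1 point for each library and a line at the mean of 3. Every gene was lower in M2 except Socs2, Socs3 by the most and Stat6 by the least, and Stat3 was lowest in the DA-treated WT group of each stimulus (87.3 and 22.7 FPKM on average).

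The first question was how the receptor and its inhibitors differed between the stimuli. In untreated WT BMDMs, 7 of the 9 genes were lower in M2 than in M1, Socs2 was higher and Stat6 did not pass the threshold. The largest difference was that of Socs3. A gene passed at a Benjamini-Hochberg adjusted p under 0.001 in limma, fitted on log2(FPKM + 1), and a change of at least 1.2-fold, the cutoff of the study's methods. All fold changes are on this scale, which understates the changes of low genes. Among all 11148 genes tested, 77.5% passed, 22.6% as lower and 54.9% as higher in M2. The median of all genes was 0.39 (log2) higher in M2, and -0.0068 after median-of-ratios scaling, with 70.8% of the passing genes higher in M2 before and 49.7% after it. The stimulus and the set of libraries cannot be told apart here.

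Il4ra (gene ID 16190, GRCm38 chr7:125552120-125579474), the chain shared by IL-4 and IL-13 receptors, had 243, 245 and 235 FPKM in untreated M1 WT and 22.2, 21.7 and 21.1 in untreated M2 WT. It was lower in M2 by far more than the spread (log2 fold change -3.42 ± 0.031 SE, 0.0936 times, limma adjusted p = 5e-29). Il13ra1 (ID 16164, chrX:36112110-36171259) encodes a chain that, like the common γ chain, can pair with the product of Il4ra. Il13ra1 had 27.8, 26.5 and 28.0 FPKM in M1 and 2.91, 2.77 and 2.81 in M2 (-2.89 ± 0.044, limma adjusted p = 6.25e-25). Il4ra and Il13ra1 were thus both lower in M2 than in M1. With no unstimulated group, a fall under IL-4 and IL-13 and a rise under LPS and IFN-γ cannot be told apart.

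Stat6 (ID 20852, chr10:127642986-127660957), the main transcription factor of the pathway, was the steadiest of the 9: its 8 group means ran from 59.8 to 73.4 FPKM. In untreated WT it had 74.1, 71.7 and 69.6 FPKM in M1 and 61.4, 59.6 and 58.5 in M2, groups that did not overlap, with a change under 1.2-fold (-0.26 ± 0.028, limma adjusted p = 1.11e-08). It passed as lower in M2 after median-of-ratios scaling (-0.70) and without replicate 3 of untreated M1 WT (-0.28) or replicate 1 of untreated M2 WT (-0.28). Stat3 (ID 20848, chr11:100885098-100939540) had 114, 115 and 109 FPKM in M1 and 41.6, 43.1 and 39.4 in M2 (-1.42 ± 0.030). Jak2 (ID 16452, chr19:29251828-29313080), a kinase that also serves the IFN-γ receptor, had 66.6, 65.6 and 70.6 in M1 and 16.8, 17.6 and 18.1 in M2 (-1.89 ± 0.045). For both genes the lowest M1 library was above the highest M2 library. Among all tested genes, 90.2% likewise did not overlap between untreated M1 WT and untreated M2 WT.

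The inhibitors did not share a direction. Socs3 (ID 12702, chr11:117966079-117970047), which restrains receptors that use gp130, had 344, 348 and 343 FPKM in untreated M1 WT and 3.67, 3.44 and 3.47 in untreated M2 WT (-6.26 ± 0.039, 0.0131 times). Socs1 (ID 12703, chr16:10782240-10785536), which inhibits JAKs directly, had 322, 311 and 295 in M1 and 37.2, 40.3 and 35.5 in M2 (-3.01 ± 0.042). Cish (ID 12700, chr9:107296026-107302784), encoding CIS, had 6.84, 6.50 and 5.93 in M1 and 3.19, 3.95 and 4.07 in M2 (-0.65 ± 0.062). Socs2 (ID 216233, chr10:95385362-95417180), best known as a brake on growth hormone signalling, was the only one of the 9 that was higher in M2, with 1.64, 1.93 and 1.92 in M1 and 4.42, 4.44 and 3.83 in M2 (0.89 ± 0.074). The limma adjusted p of these 4 genes was 1.09e-09 or less.

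In untreated DRD5-/- BMDMs the same 7 genes were lower and Socs2 higher in M2 (77.2% of all genes passed, with 69.6% of them higher before and 50.1% after scaling). The log2 fold changes were -3.69 for Il4ra, -3.03 for Il13ra1, -1.63 for Stat3, -1.77 for Jak2, -3.38 for Socs1, 0.74 for Socs2, -6.77 for Socs3 and -1.14 for Cish. Stat6 was at -0.22, and passed only after scaling (-0.63). In both genotypes the direction of each of the 9 genes was the same with and without scaling. Stromal markers stood with the stimulus: the 5 of them summed to 3.29 to 3.91 FPKM in M1 and 37.5 to 62.7 in M2, with Pdgfra at 0.05 or less in M1. Dendritic cell markers (4, of which Ccr7 and Xcr1 reached 1 FPKM) summed to 21.4 to 43.0 in M1 and 0.69 or less in M2. Neutrophil markers (6) summed to 14.2 to 59.6 in M1 and 0.24 to 1.51 in M2, and 3 of 3 tested were lower in M2 in WT and 1 of 3 in DRD5-/-. None passed the expression filter in the M2 libraries, so these 3 were tested through their M1 level. T cell markers summed to 0.67 to 1.32 in M1 and 2.2 to 6.66 in M2, and mast cell and basophil markers to 0.21 to 0.46 in M1 and 2.0 to 3.86 in M2. The part of all these markers in the differences was not tested.

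**Figure D2:**
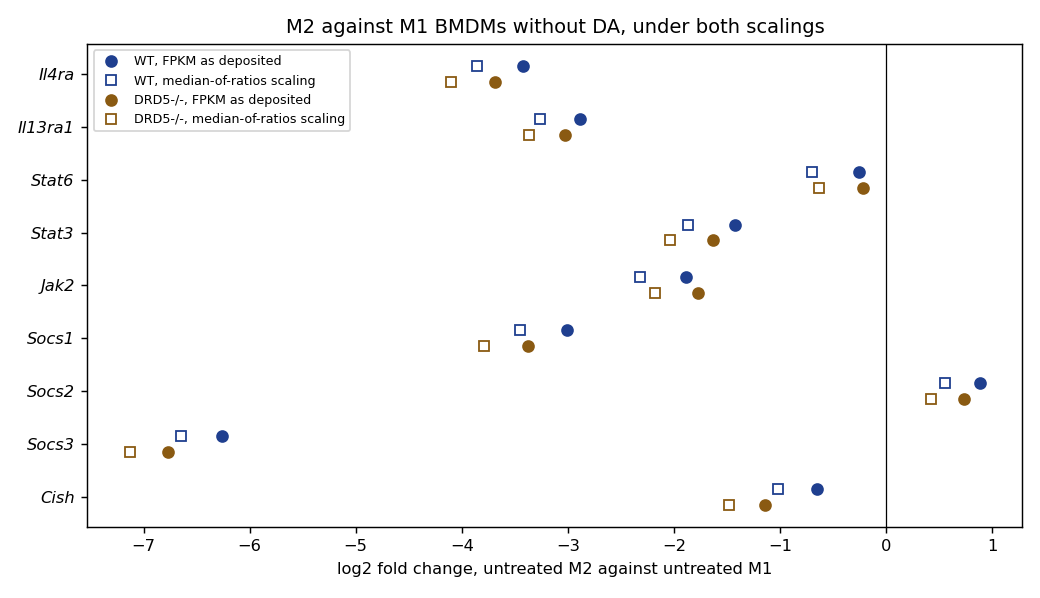
Log2 fold change of the 9 genes, untreated M2 against untreated M1, in WT and DRD5-/- BMDMs. Filled circles use the FPKM as deposited and open squares median-of-ratios scaling, which moved every value lower. Socs3 lies farthest left, at -6.26 in WT and -6.77 in DRD5-/-, and Socs2 alone lies right of 0.

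The next question was what DA did in M1 BMDMs. In M1 WT, 4 of the 9 genes fell with DA, Socs3, Stat3, Jak2 and Socs1, and none rose. The falls ran from 0.663 times for Socs3 to 0.803 times for Socs1. Of the 10040 genes tested in M1, 14.3% passed, 9.6% as lower and 4.73% as higher. The median change of the 9 genes was -0.14 and that of all tested genes -0.067. Scaling moved the share of higher genes among those passing from 33% to 55.7%. The libraries of 7 of the 9 genes did not overlap between untreated and DA-treated M1 WT, against 56.5% of all tested genes.

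Socs3 gave the widest gap. It had 344, 348 and 343 FPKM in untreated M1 WT and 226, 226 and 233 in DA-treated M1 WT, and the spread within each group was a small part of the difference (log2 fold change -0.59 ± 0.023, limma adjusted p = 1.2e-10). Socs1 had 322, 311 and 295 untreated and 245, 245 and 254 with DA (-0.32 ± 0.042, limma adjusted p = 2.75e-05). Every DA-treated library was below every untreated one for both. After median-of-ratios scaling the Socs1 change was -0.24 and no longer reached 1.2-fold, with a limma adjusted p of 0.000557 (1.57e-05 to 0.000557 over 18 alternatives). Socs2 had 1.64, 1.93 and 1.92 untreated and 2.06, 1.97 and 1.70 with DA (0.040, 95% confidence interval -0.13 to 0.21). Cish had 6.84, 6.50 and 5.93 untreated and 6.42, 6.46 and 6.11 with DA (-0.017, interval -0.13 to 0.10). The groups of Socs2 and Cish overlapped.

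Stat3 had 114, 115 and 109 FPKM in untreated M1 WT and 84.7, 88.5 and 88.8 with DA (-0.36 ± 0.030, limma adjusted p = 2.22e-07). Jak2 had 66.6, 65.6 and 70.6 untreated and 54.8, 54.3 and 49.6 with DA (-0.35 ± 0.047, limma adjusted p = 3.17e-05). Neither gene overlapped between the groups. Stat6 had 74.1, 71.7 and 69.6 untreated and 64.4, 65.6 and 65.1 with DA (-0.14 ± 0.031, limma adjusted p = 0.00191), lower in every library but short of the threshold. The receptor chains stood on the other side of 0. Il4ra had 243, 245 and 235 untreated and 253, 262 and 264 with DA (0.11 ± 0.025, limma adjusted p = 0.00368). Il13ra1 had 27.8, 26.5 and 28.0 untreated and 31.7, 31.4 and 30.6 with DA (0.18 ± 0.033, limma adjusted p = 0.000414), a change under 1.2-fold. Their libraries did not overlap either.

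In M1 DRD5-/- BMDMs none of the 9 genes passed with DA, and neither did any of the 10040 genes in limma (0%). At an unadjusted p under 0.05 there were 569 genes (5.67%), and none of the 9. Socs3 had 377, 377 and 365 FPKM untreated and 364, 371 and 370 with DA (-0.019, 95% confidence interval -0.069 to 0.031). Stat3 had 113, 113 and 114 untreated and 117, 114 and 121 with DA (0.051, interval -0.013 to 0.11). Socs1 had 365, 377 and 341 untreated and 360, 371 and 339 with DA (-0.016, interval -0.11 to 0.075). The untreated and DA-treated libraries overlapped for Socs1 and Socs3, while those of Stat3 just did not. Of the 9 genes, only Stat3 and Il13ra1 were without overlap (8.73% of all tested genes). Jak2 had 62.1, 58.0 and 62.5 untreated and 61.8, 60.6 and 66.9 with DA (0.050, interval -0.051 to 0.15). The other 5 genes were between -0.026 (Cish) and 0.069 (Il13ra1). For Stat3, Jak2, Socs1 and Socs3 the interval in DRD5-/- excluded the size of the change in WT.

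**Figure D3:**
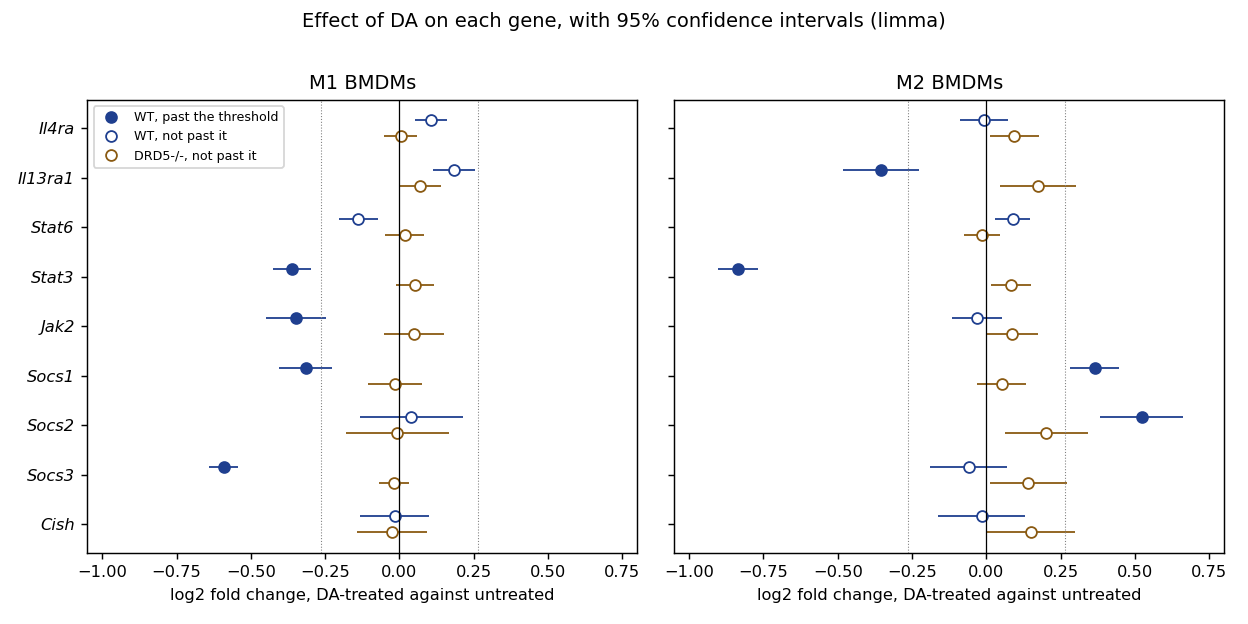
Log2 fold change of the 9 genes with DA in M1 (left) and M2 (right) BMDMs, WT in blue and DRD5-/- in brown, with 95% confidence intervals from limma. Filled points passed the threshold and dotted lines mark a 1.2-fold change. In M1, Stat3, Jak2, Socs1 and Socs3 of WT lie to the left (-0.32 to -0.59), and in M2 Il13ra1 (-0.35) and Stat3 (-0.84) lie left and Socs1 (0.37) and Socs2 (0.52) right, while no DRD5-/- point is filled.

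Whether the effect of DA differed between the genotypes was tested directly. In M1 the difference (WT minus DRD5-/-) passed for 3 of the 9 genes, all lower: Socs3 (-0.57 ± 0.033, limma adjusted p = 2.12e-08), Stat3 (-0.41 ± 0.042, 5.03e-06) and Jak2 (-0.40 ± 0.067, 0.000449). Of all tested genes 8.38% passed (5.18% as lower), with 38.2% of them higher before and 63.8% after scaling. Socs1 was at -0.30 ± 0.060 with a limma adjusted p of 0.00162, and passed without replicate 3 of untreated M1 WT (-0.335), without replicate 3 of DA-treated M1 DRD5-/- (-0.336), or at an adjusted p of 0.05. The Jak2 call was lost after scaling (-0.32), without the expression filter, and without any one of 5 libraries (replicates 1 and 3 of untreated M1 WT, 3 of DA-treated M1 WT, 2 of untreated DRD5-/- and 3 of DA-treated DRD5-/-), with limma adjusted p of 0.000449 to 0.00296 over 17 alternatives. Among DA-treated M1 BMDMs, 3 of the 9 genes were lower in WT than in DRD5-/-: Socs3 (-0.69 ± 0.023), Socs1 (-0.52 ± 0.042) and Stat3 (-0.42 ± 0.030). There 18.5% of all genes passed (12.6% as lower), with 32.1% of them higher in WT before and 52.5% after scaling. Jak2 was at -0.25 ± 0.047 and passed only without replicate 2 of DA-treated M1 DRD5-/- (-0.28) or replicate 1 of DA-treated M1 WT (-0.28).

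Without DA, none of the 9 genes passed between M1 DRD5-/- and M1 WT, against 0.936% of all genes. The libraries of 5 of the 9 did not overlap between the genotypes (30.9% of all genes). Cish had 8.18, 7.41 and 7.97 FPKM in DRD5-/- and 6.84, 6.50 and 5.93 in WT (0.26 ± 0.055, limma adjusted p = 0.00909). Socs1 had 365, 377 and 341 in DRD5-/- and 322, 311 and 295 in WT (0.22 ± 0.042, limma adjusted p = 0.00418). Socs3 had 377, 377 and 365 in DRD5-/- and 344, 348 and 343 in WT (0.11 ± 0.023, limma adjusted p = 0.00773). These 3 inhibitors were thus above WT in every DRD5-/- library, short of the threshold. The others were between -0.15 (Jak2) and 0.096 (Socs2). Neutrophil markers moved with both groupings: the 6 of them summed to 31.98 to 38.57 FPKM in untreated M1 WT, 49.6 to 59.6 in DA-treated M1 WT, 14.2 to 17.4 in untreated M1 DRD5-/- and 16.6 to 19.5 in DA-treated M1 DRD5-/-. S100a8, Camp and Ngp carried these sums, while Elane was at 0 in every M1 library and Ly6g at 0.33 or less. Dendritic cell markers summed to 38.1 to 40.3 in untreated and 21.4 to 22.3 in DA-treated M1 WT, mostly Ccr7. In M1, Flt3 stayed at 0.39 FPKM or less, Zbtb46 at 0.62 or less and Xcr1 at 2.03 or less. The part of these markers was not tested.

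In M2 the question was the same. DA moved 4 of the 9 genes in M2 WT, of which Stat3 and Il13ra1 fell and Socs1 and Socs2 rose. In M2 WT 46.3% of the 10735 genes tested passed, 20.4% as lower and 25.9% as higher, so 4 of 9 is close to the share among all genes. The median change of the 9 genes was -0.016 and that of all tested genes 0.031. The libraries of 6 of the 9 genes did not overlap, against 76% of all tested genes.

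Among the transcription factors, Stat3 had 41.6, 43.1 and 39.4 FPKM in untreated M2 WT and 22.7, 22.8 and 22.7 with DA. The 3 DA-treated libraries lay close together and far below the untreated ones (-0.84 ± 0.031, 0.561 times, limma adjusted p = 1.04e-11). Stat6 had 61.4, 59.6 and 58.5 untreated and 62.4, 64.3 and 64.3 with DA (0.088 ± 0.028, limma adjusted p = 0.00996). Jak2 had 16.8, 17.6 and 18.1 untreated and 16.8, 17.2 and 17.3 with DA (-0.031, 95% confidence interval -0.12 to 0.054), groups that overlapped.

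The 2 receptor chains differed. Il13ra1 had 2.91, 2.77 and 2.81 FPKM in untreated M2 WT and 2.04, 1.81 and 2.15 with DA (-0.35 ± 0.059, limma adjusted p = 9.25e-05), with no overlap. Il4ra had 22.2, 21.7 and 21.1 untreated and 22.3, 21.5 and 20.8 with DA (-0.0077, interval -0.090 to 0.075), and the groups lay on top of each other. Among the inhibitors, Socs1 had 37.2, 40.3 and 35.5 untreated and 49.3, 47.9 and 49.0 with DA (0.37 ± 0.038, limma adjusted p = 7.22e-07). Socs2 had 4.42, 4.44 and 3.83 untreated and 6.79, 6.13 and 6.60 with DA (0.52 ± 0.065, 1.44 times, limma adjusted p = 5.41e-06). Both were above the untreated range in every DA-treated library. Socs3 had 3.67, 3.44 and 3.47 untreated and 3.34, 3.37 and 3.33 with DA (-0.058, interval -0.19 to 0.071). Cish had 3.19, 3.95 and 4.07 untreated and 3.83, 3.69 and 3.49 with DA (-0.016, interval -0.16 to 0.13).

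In M2 DRD5-/- none of the 9 genes passed with DA, against 4.02% of all genes (83.8% of those passing were higher before scaling and 69.7% after it). At an unadjusted p under 0.05 there were 7 of the 9, all higher with DA, and 42.6% of all genes. Stat3 had 36.1, 35.4 and 36.1 FPKM untreated and 38.0, 38.1 and 38.0 with DA (0.082 ± 0.031, limma adjusted p = 0.0576). Il13ra1 had 2.47, 2.31 and 2.28 untreated and 2.97, 2.79 and 2.60 with DA (0.18 ± 0.059, limma adjusted p = 0.038). For both, the direction was opposite to that in WT. Socs2 had 3.95, 4.13 and 4.02 untreated and 5.26, 4.83 and 4.32 with DA (0.20 ± 0.065, limma adjusted p = 0.0304). Socs1 had 33.9, 33.2 and 33.9 untreated and 34.3, 35.5 and 35.0 with DA (0.051, interval -0.030 to 0.13). Cish was at 0.15, Socs3 at 0.14, Il4ra at 0.094, Jak2 at 0.087 and Stat6 at -0.015, and after scaling each of the 9 kept its sign.

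The difference of the DA effects between the genotypes passed for 3 of the 9 genes in M2 (43.2% of all genes): Stat3 (-0.92 ± 0.044, limma adjusted p = 3.4e-10), Il13ra1 (-0.53 ± 0.084, 7.11e-05) and Socs1 (0.31 ± 0.053, 0.00013). Socs2 was at 0.32 ± 0.093 with a limma adjusted p of 0.00714, and passed only at an adjusted p of 0.05. Among DA-treated M2 BMDMs, Stat3 (-0.72 ± 0.031) and Il13ra1 (-0.34 ± 0.059) were lower and Socs1 (0.47 ± 0.038) and Socs2 (0.37 ± 0.065) higher in WT than in DRD5-/-, 4 of 9 against 49.7% of all genes. The Il13ra1 call ended without replicate 2 of DA-treated M2 WT (-0.29) and with the compared groups alone in the fit, where its limma adjusted p was 0.00111 (5.81e-05 to 0.00111 over 18 alternatives).

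Without DA, 1 of the 9 genes differed between M2 DRD5-/- and M2 WT, against 5.51% of all genes (4.15% as lower, and 24.8% of those passing were higher in DRD5-/- before scaling and 40.2% after it). Socs3 had 2.28, 2.69 and 2.31 FPKM in DRD5-/- and 3.67, 3.44 and 3.47 in WT (-0.40 ± 0.060, limma adjusted p = 0.000216). The groups did not overlap, but the call ended without the expression filter, with the compared groups alone, and without replicate 1 (-0.37) or 3 (-0.38) of untreated M2 DRD5-/- or replicate 1 of untreated M2 WT (-0.38), with limma adjusted p of 0.000163 to 0.00208 over 18 alternatives. Stat3 had 36.1, 35.4 and 36.1 in DRD5-/- and 41.6, 43.1 and 39.4 in WT (-0.20 ± 0.031, limma adjusted p = 0.000308), a change under 1.2-fold. Il4ra had 19.5, 18.8 and 17.8 in DRD5-/- and 22.2, 21.7 and 21.1 in WT (-0.20 ± 0.038, limma adjusted p = 0.00149). Cish (-0.23), Il13ra1 (-0.19) and Socs1 (-0.16) also lay below WT in every library, which made 6 of the 9 genes without overlap (39.5% of all genes). In M2 the stromal markers summed to 52.6 to 53.7 FPKM in untreated WT, 59.8 to 62.7 in DA-treated WT, 37.5 to 39.0 in untreated DRD5-/- and 37.9 to 39.7 in DA-treated DRD5-/-. All 5 reached 1 FPKM. Macrophage markers summed to 10720 to 10890 in untreated and 8349 to 8388 in DA-treated M2 WT. Of the 8, 4 were lower and 1 higher with DA (all genes 20.4% and 25.9%). In M2 DRD5-/- they summed to 10900 to 10960 untreated and 10840 to 11300 with DA. In M1 WT their sum was higher with DA, at 7482 to 7600 untreated and 8170 to 8245 treated. T cell markers summed to 3.88 to 4.41 FPKM in untreated M2 WT, 2.2 to 2.73 in DA-treated M2 WT, 6.52 to 6.66 in untreated M2 DRD5-/- and 5.25 to 5.74 in DA-treated M2 DRD5-/-, mostly Cd4. Cd4, which macrophages can also express, fell with DA in M2 WT (-0.67) and was higher in untreated DRD5-/- than in WT (0.62). Mast cell and basophil markers summed to 2.99 to 3.08, 2.0 to 2.14, 3.57 to 3.86 and 2.8 to 3.1 in the same 4 groups, and Kit fell with DA in M2 WT (-0.34). The part of these markers was not tested.

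The effect of DA in WT was also compared between the stimuli (M2 minus M1). It passed for 6 of the 9 genes, against 45.9% of all genes. Stat3 fell in both stimuli and by more in M2 (-0.47 ± 0.042, limma adjusted p = 1.12e-09). Socs1 fell in M1 and rose in M2 (0.68 ± 0.059, limma adjusted p = 8.76e-10). Il13ra1 (-0.54 ± 0.062) was at 0.18 in M1 and fell in M2, and Socs3 (0.53 ± 0.056) and Jak2 (0.32 ± 0.064) fell in M1 and did not pass in M2. Socs2 (0.48 ± 0.11) rose in M2 and did not pass in M1. The Jak2 difference ended after scaling (0.24), where its limma adjusted p was 0.00152 (7.91e-05 to 0.00152 over 29 alternatives). That of Socs2 ended after scaling (0.41), with a pseudocount of 0.1 (0.55), and without replicate 2 (0.46) or 3 (0.46) of untreated M1 WT, 3 of DA-treated M1 WT (0.43), 3 of untreated M2 WT (0.43), or 1 (0.46) or 3 (0.47) of DA-treated M2 WT, with limma adjusted p of 0.000142 to 0.00186.

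The wider pathway was described through lists written by hand. The counts of each list are to be read against the shares of all tested genes that passed with DA, 4.73% as higher and 9.6% as lower in M1 WT and 25.9% as higher and 20.4% as lower in M2 WT. Of the 4 ligands and other receptor chains, Il2rg, the common γ chain, was tested in M1 WT and did not pass (-0.087 with DA). In M2 WT it fell from 127 ± 6.96 to 90.8 ± 1.96 FPKM (means ± SD of 3 libraries, as in the values that follow), or -0.47 on the log2 scale (limma adjusted p = 3.42e-08). Il13ra2, which binds IL-13 without passing on the signal through STAT6, fell in M2 WT from 4.82 ± 0.466 to 1.40 ± 0.181 FPKM (-1.28, limma adjusted p = 4.93e-09). So among the chains that bind IL-4 or IL-13 in M2 WT, Il13ra1, Il13ra2 and Il2rg fell with DA, while Il4ra did not pass. Il4 and Il13 themselves were not tested in either stimulus.

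Of the 8 other JAKs and STATs, 1 passed in M1 WT: Stat4, the mediator of IL-12, fell from 4.25 ± 0.423 to 2.44 ± 0.229 FPKM (-0.61). In M2 WT 3 of the 8 passed, all lower: Jak3 (-0.39), the partner of the common γ chain, Stat2 (-0.39) and Stat5b (-0.31). Both counts are near or below the shares of all genes that passed in either direction (14.3% in M1 WT and 46.3% in M2 WT). By direction, 20.4% of all genes were lower and 25.9% higher in M2 WT. The falls of this list in M2 WT were thus above the share of falls, in a list of only 8 genes. The median change of this list was -0.069 in M1 WT (all genes -0.067) and -0.12 in M2 WT (all genes 0.031).

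Of the 13 other SOCS, PIAS and phosphatase genes, 1 fell in M1 WT and 5 in M2 WT, and none rose, against 9.6% of all genes lower in M1 WT and 20.4% lower and 25.9% higher in M2 WT. The M1 count is near the share among all genes. Ptpn1, a phosphatase of JAKs, fell in both: from 70.8 ± 2.68 to 58.3 ± 1.45 FPKM in M1 WT (-0.28) and from 65.4 ± 2.38 to 37.9 ± 0.690 in M2 WT (-0.77). Ptprc, the phosphatase CD45, and Socs6 fell in M2 WT (-0.61 and -0.54). In the adaptor branch, through which the IL-4 receptor reaches IRS proteins, Dok2 rose in M1 WT (0.28) and from 44.0 ± 1.67 to 117 ± 1.42 FPKM in M2 WT (1.39). Inpp5d, the phosphatase SHIP1, rose in M2 WT (0.29), and Gab2 (-0.46) and Grb2 (-0.45) fell there, which made 2 up and 2 down of 6 tested.

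Of the other receptors that use JAKs, 5 rose and 7 fell of 17 tested in M2 WT (all genes 25.9% and 20.4%), where the rises are close to the share among all genes, and 3 rose of 16 in M1 WT (all genes 4.73%). In M1 WT these were Il7r (0.64), Il21r (0.53) and Il6st (0.42), the last encoding gp130, the receptor chain that SOCS3 binds. In M2 WT the largest rises were Il21r (1.30), Csf2rb (0.90) and Csf2rb2 (0.46), chains of the IL-21 receptor and of the GM-CSF receptor family. The largest falls were Csf3r (-1.48), the G-CSF receptor, Il10ra (-1.16), the IL-10 receptor, and Lifr (-0.73). Csf2rb and Csf2rb2 are near-identical copies, so reads may have been split between them.

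The targets of the STATs were split as well. Genes known to be induced by IL-4 through STAT6 were 18 higher and 4 lower of 22 in untreated M2 against M1 WT, where 54.9% of all genes were higher and 22.6% lower. Of the 24 listed, 22 passed the expression filter in the M2 libraries and 15 in the M1 libraries. Some of the 22 were thus tested only through their M2 level, which made a higher call likely, so the count is no test of the list. With DA in M2 WT, the STAT6-induced list had 9 higher and 9 lower of 22, against 25.9% and 20.4% of all genes (median -0.12, all genes 0.031). Arg1, arginase 1, rose from 28.9 ± 0.795 to 592 ± 7.34 FPKM (4.31), Mgl2 rose by 2.53 and Cdh1 by 2.50 on the log2 scale, while Ccl22 (-2.25), Retnla (-1.79) and Pdcd1lg2 (-1.26) fell. In M1 WT 3 rose and 3 fell of 15 (all genes 4.73% and 9.6%): Arg1 (1.47), Klf4 (0.75) and Mrc1 (0.63) were higher, and Ch25h (-1.16), Ccl22 (-0.62) and Pdcd1lg2 (-0.34) lower.

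Of the genes listed by hand as induced by IL-10 or IL-6 through STAT3, 7 of 13 fell and 1 rose in M1 WT, against 9.6% and 4.73% of all genes (median -0.35, all genes -0.067). The list holds Socs3 and Il4ra. Its largest falls were Il6 (-0.75), Socs3 (-0.59) and Nfil3 (-0.52), and the rise was Hmox1 (1.38), heme oxygenase 1, which is also induced by oxidative stress. The paper places Il6 among the M1 genes controlled by NF-κB signalling, so its place in this list is uncertain. Which route lowered Il6 was not tested, and neither was the activity of STAT3. In M2 WT 3 rose and 3 fell of 12, close to the shares of all genes (25.9% and 20.4%), with a median of 0.062. Here Hmox1 (3.85), Il10 (1.17) and Cebpd (0.50) were higher, and Pim1 (-1.60), Bcl3 (-0.996) and Nfil3 (-0.77) lower. The lists were chosen with earlier results known, and nothing is called particular to a list.

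**Figure D4:**
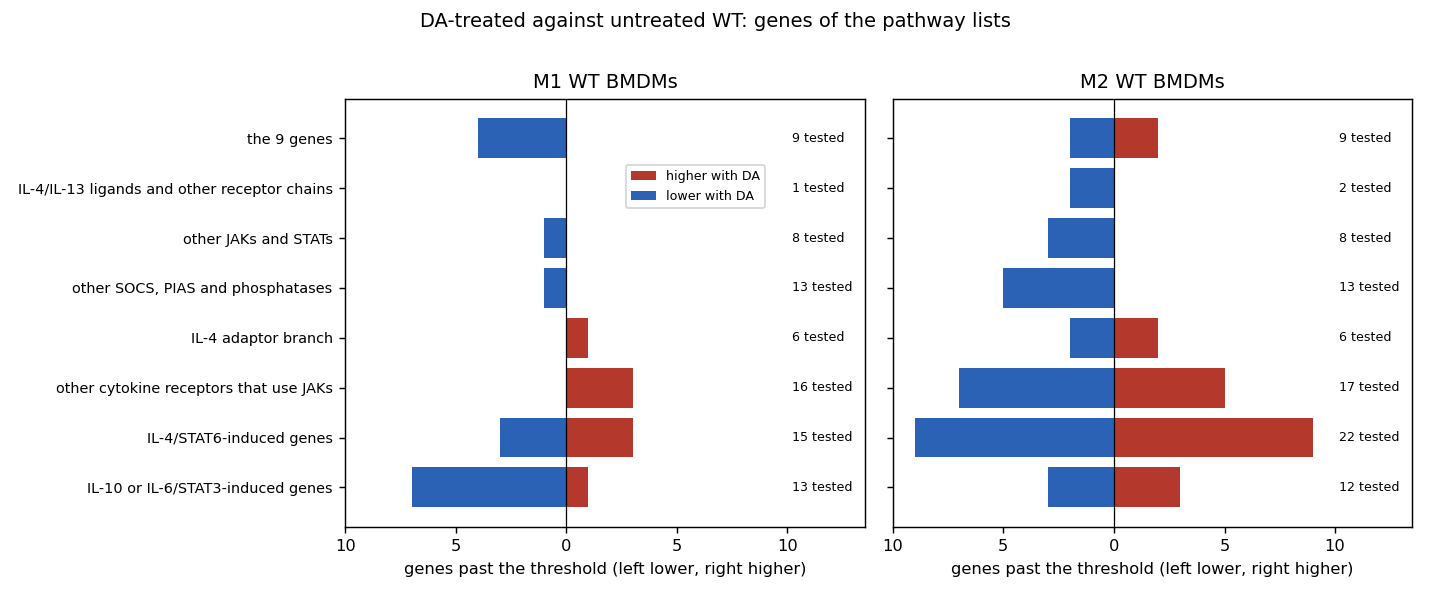
Number of genes past the threshold with DA in M1 WT (left) and M2 WT (right) for the 9 genes and 7 pathway lists, with lower genes drawn left and higher genes right of 0 and the number tested beside each bar. In M1 WT the STAT3-induced list has the longest bar (7 lower of 13), and in M2 WT the STAT6-induced list has 9 on each side.

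Across the 24 libraries, with each stimulus centred on its mean, the genes with the pattern most like that of Stat3 among 11139 were Nub1 (Pearson's r = 0.99), Ptpn1 (0.98) and Mmp14 (0.98). For Socs1 they were Syngr2 (0.98), Eif2b2 (0.96) and Srprb (0.96), for Socs2 Sh3rf1 (0.95), Ywhag (0.92) and Nlrp1a (0.91), and for Socs3 Fosl2 (0.94), Itsn1 (0.94) and Vasp (0.94). Il13ra1 was most like Tmem229b (0.94), Hipk1 (0.94) and Mfsd6 (0.93), Stat6 like Ercc2 (0.92), Tbc1d13 (0.89) and Cpsf6 (0.88), and Jak2 like Gpkow (0.90), Cnot2 (0.89) and Sgcb (0.86). The least matched were Il4ra, with Rnd3 (0.81), Flt3l (0.80) and Gm16867 (0.79), and Cish, with Fxyd5 (0.81), Hk1 (0.81) and Elmsan1 (0.79). Among the 9 genes, Socs1 and Socs3 were the most alike (0.81), and Il13ra1 and Socs1 the most opposed (-0.72). The points share groups of 3 libraries, so these values only describe the patterns.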

How the data were processed

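From 24 BGISEQ-500 libraries the authors mapped filtered reads and deposited FPKM with gene symbols for each library. The paper's methods and the labels name HISAT2 (GRCm38.p5 in the methods), whereas the submitters' processing notes name Bowtie2 2.2.5 and GRCm38.p6, and the counter is not given in the sources used here. Depth could not be recovered: 23 of 83 low M1 genes and 13 of 72 low M2 genes lay on whole steps (10% tolerance).

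Genes with at least 1 FPKM in at least 3 libraries were tested on log2(FPKM + 1) in limma 3.58.1 under R 4.3.3, with an intensity trend and Benjamini-Hochberg adjustment over all genes: 12 libraries for comparisons within a stimulus, 24 between stimuli. The fit was tested on simulated data. Gene coordinates came from the GENCODE annotation of GRCm38, and Python 3.11.15 did the rest.

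Named were the 9 genes, up to 3 largest rises and falls of each list with DA in WT, the 3 genes most like each of the 9, and Drd5; Il2rg in M1 was named after its value was seen. One planned list is not reported here. The 9 genes and the lists were chosen with earlier results of these data known. Alternatives were no filter, median-of-ratios scaling, a pseudocount of 0.1, an adjusted p of 0.05, the compared groups alone, a replicate block and leaving out each library.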

Additional observations from a re-analysis of the deposited data

Results flagged for a closer look

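The effect of DA differed between WT and DRD5-/- BMDMs, by a direct test of the difference (WT minus DRD5-/-, limma, log2 scale, 3 libraries a group), for Socs3 (-0.574), Stat3 (-0.414) and Jak2 (-0.398) in M1, and for Stat3 (-0.918), Il13ra1 (-0.528) and Socs1 (0.313) in M2. Stat3 is in both sets. Of all tested genes, 8.38% passed this test in M1 and 43.2% in M2. The M1 call of Jak2 was lost after scaling, without the expression filter and without any one of 5 libraries.

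The effect of DA in WT differed between the stimuli (M2 minus M1) for Il13ra1 (-0.536), Stat3 (-0.472), Jak2 (0.317), Socs1 (0.681), Socs2 (0.483) and Socs3 (0.534). The same test passed for 45.9% of all genes. The differences of Jak2 and Socs2 did not pass after median-of-ratios scaling. That of Socs2 was also lost with a pseudocount of 0.1 and without any one of several libraries.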

How the results depend on the processing

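Of 117 values of the 9 genes over 13 comparisons, 44 passed the threshold, 38 of them under every alternative tried, and 6 lost the call under at least 1. An adjusted p of 0.05 could only add calls, and leaving out a library outside the compared groups left the fold change as it was. Between untreated M2 and M1, 8 of the 9 passed in each genotype, where 77.5% (WT) and 77.2% (DRD5-/-) of all genes passed. No called value changed sign, while 16 values that had not passed did. Counts of genes that moved by over 1.5 times were those of M1 untreated DRD5-/- against WT (94, but 43 without the filter, 202 at an adjusted p of 0.05 and 36 to 94 leaving out 1 library, lowest without replicate 2 of untreated M1 DRD5-/-, then 45 without replicate 3 of untreated M1 WT and 57 without replicate 3 of untreated M1 DRD5-/-). At an adjusted p of 0.05 the count was 1836 rather than 841 for the M1 difference of DA effects, 719 rather than 432 for DA in M2 DRD5-/-, and 895 rather than 592 for M2 untreated DRD5-/- against WT. In that last comparison the count of the 9 genes was 1, and 0 without the filter or with the compared groups alone, and 0 to 1 leaving out 1 library. The setting without the filter adjusts over more genes and the others use fewer libraries or another cutoff, and the cause was not tested further. Over all tested genes, same-numbered libraries showed little shared residual (r of -0.178 to 0.103 in M1 and -0.169 to 0.179 in M2). In each stimulus 1 of 18 pairs was over 0.1. These values cannot tell whether a number stands for a shared mouse or culture. A replicate block changed no call of the 9 genes: it gave 1359 genes rather than 1439 for DA in M1 WT and 4906 rather than 4971 in M2 WT. Unknown depth limits what can be said of Socs2, Cish, and in M2 Il13ra1 and Socs3, which lie at a few FPKM.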
